A study of Mus musculus with 6 samples.

Results

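The genes described are 9 chemokine receptors other than Ccr7, namely Cxcr3, Cxcr4, Cxcr5, Cxcr6, Ccr2, Ccr4, Ccr6, Ccr8 and Ccr9. They were taken by symbol from the 20866 genes named on a mouse expression array, each read by its brightest probe, and all 9 were found. RelA, also called p65, is a DNA-binding member of the NF-kB family, and the study compared cells with and without it from the thymi of TNF-deficient C57BL/6 mice at 1.5 to 2 weeks of age. The 2 genotypes were a double knockout of TNF and RelA and a TNF knockout, so that the animals of both groups lacked TNF. Mouse embryos without RelA die unless TNF is removed too, and no group here had intact TNF. From each genotype, 3 sorted populations were put on 1 array each. They were CD4+CD25hi thymocytes pooled from 5 mice, CD45-EpCAM+ thymic epithelial cells pooled from 10 thymi, and CD45+EpCAM- cells pooled from 10 thymi, a fraction that the labels call stroma and that was sorted to hold macrophages or dendritic cells. The last 2 sorts are called epithelial cells and CD45+ cells below.

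Chemokine receptors are membrane receptors with several transmembrane helices that signal through inhibitory G proteins. They turn a cell towards a source of the chemokine they bind. In the thymus they bring progenitors in, move thymocytes between cortex and medulla, and place mature T cells and dendritic cells. Regulatory T cells carry several of them, partly according to how far they have matured or whether they have returned to the thymus from outside.

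Each array was scaled to the 75th percentile of its signal, and a level is the log2 signal above that percentile. A level can be compared between arrays for 1 probe, not between probes. Rela itself was lower in the double knockout in all 3 populations, by a log2 difference of -1.86 in CD4+CD25hi, -2.02 in epithelial and -0.74 in CD45+ cells. The double-knockout array of epithelial cells was the dimmest. Its 75th percentile was a signal of 108, against 370 for the TNF-knockout array beside it, and 47.3% against 66.2% of its probes were well above background. On the other 4 arrays that percentile lay between 272 and 675. With 1 array per group, a genotype difference has no replicate check and no test, and precision is limited by how few arrays there are. The arrays of a population shared a slide, so the genotypes can be compared within a slide, while population and slide cannot be told apart. In bulk samples, fewer cells of a type and less RNA per cell cannot be told apart either.

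Marker genes showed what each sort held. Foxn1, which specifies thymic epithelium, was well above background only in epithelial cells, and Foxp3, which specifies regulatory T cells, was highest in CD4+CD25hi thymocytes and not well above background in epithelial cells. T lineage genes were present in every sort. Their signals, summed and divided by the array's 75th percentile, came to 487 and 512 in double-knockout and TNF-knockout CD4+CD25hi thymocytes. The same sum was 117 in double-knockout and 62.8 in TNF-knockout epithelial cells, and 438 and 416 in CD45+ cells of these genotypes. The part of T lineage RNA in the receptor levels of the stromal sorts was not tested.

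In CD4+CD25hi thymocytes, Cxcr4 and Cxcr3 were at least 2-fold higher in the double knockout and none was 2-fold lower, among 8 receptors measured. Of all 12936 genes measured there, 1.68% were 2-fold higher and 1.28% 2-fold lower. In epithelial cells, Cxcr4 and Cxcr6 were at least 2-fold higher and Cxcr5, Ccr4 and Ccr6 at least 2-fold lower, among 6 measured, on a background of 5.1% higher and 9.3% lower of 13208 genes. With another background correction (normexp), whose added offset makes differences of dim signals smaller, none of these 5 differences reached 2-fold. In CD45+ cells, Ccr6 was the only one of 9 receptors past 2-fold, and it was lower, where 1.82% of 14588 genes were higher and 2.08% lower. The median difference of the receptors measured was 0.28 in CD4+CD25hi, -0.54 in epithelial and -0.08 in CD45+ cells, against -0.02, 0.03 and -0.01 for all genes. The median in epithelial cells was 0.05 with normexp.

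**Figure D1:**
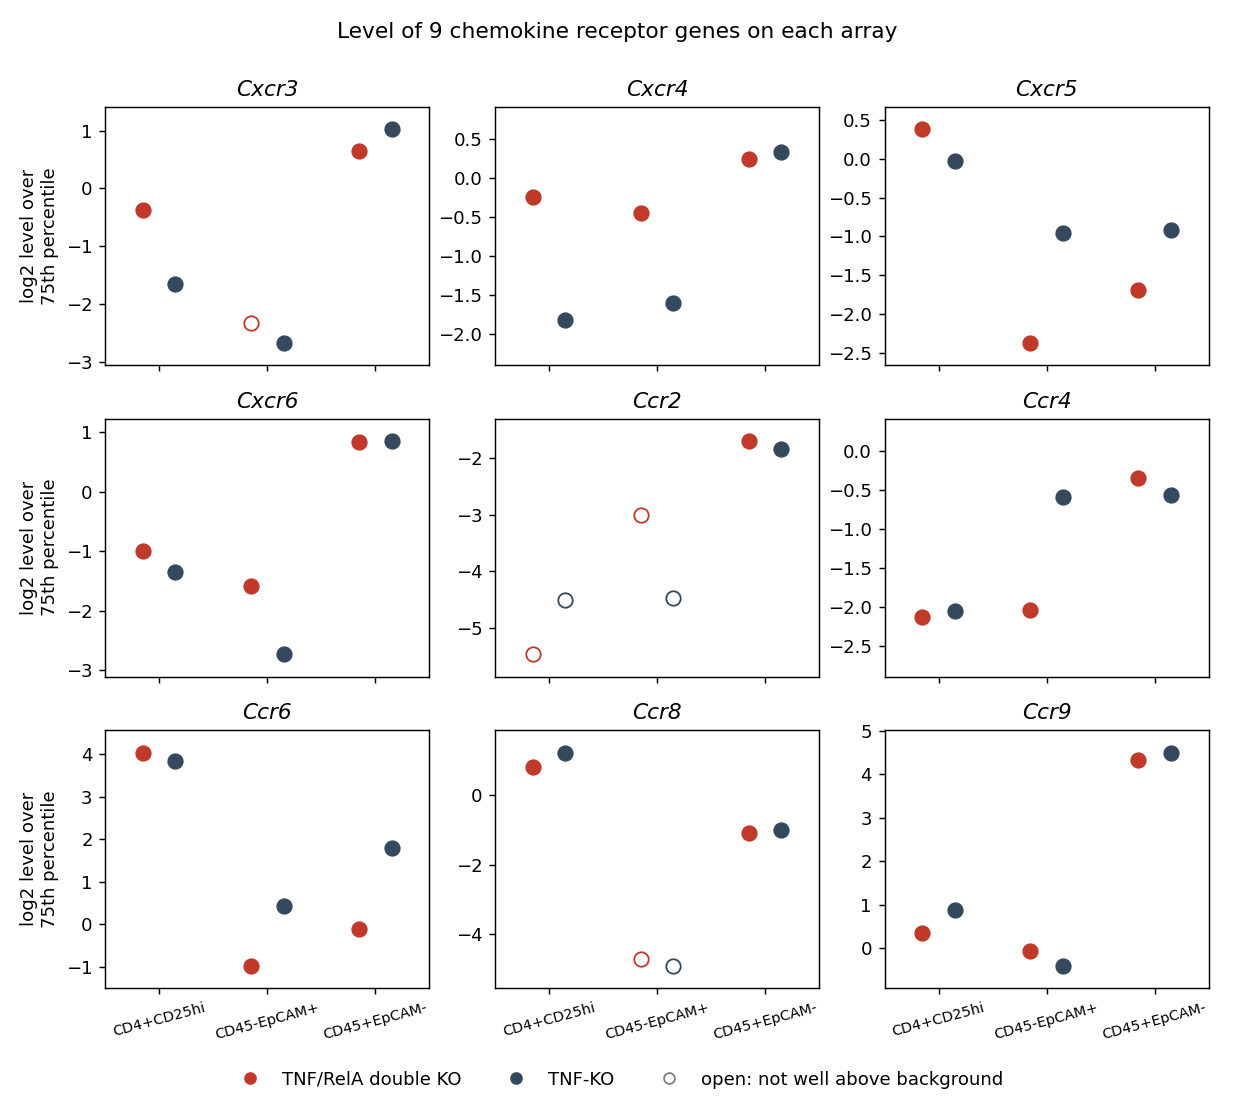
Level of each receptor (log2 over the array's 75th percentile, vertical axis) on the 6 arrays, with the double knockout left of the TNF knockout in each population and open symbols for arrays on which the probe was not well above background. Ccr6 is highest in CD4+CD25hi thymocytes, at 4.03 and 3.83, and Ccr9 in CD45+ cells, at 4.33 and 4.50.

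Cxcr4 binds Cxcl12 and guides haematopoietic progenitors and early thymocytes. Its level in CD4+CD25hi thymocytes was -0.24 in the double knockout and -1.81 in the TNF knockout, a difference of 1.57 or 2.97-fold. In epithelial cells it was -0.45 in the double knockout and -1.60 in the TNF knockout, a difference of 1.15 or 2.22-fold. In CD45+ cells the levels were 0.25 and 0.33 in these genotypes, a difference of -0.08. Cxcr4 was thus higher in the double knockout in 2 populations and nearly level in the third. The difference in epithelial cells exists on the scaled values, since the unscaled signal was 79 on the double-knockout array and 122 on the TNF-knockout array. It was 0.94 with normexp, just short of 2-fold. In CD4+CD25hi thymocytes it was 1.13 with normexp and stayed past 2-fold.

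Ccr9 binds Ccl25, a chemokine of thymic and gut epithelium, and is carried by most thymocytes in the cortex. It had levels of 4.33 and 4.50 in double-knockout and TNF-knockout CD45+ cells, a difference of -0.17. In CD4+CD25hi thymocytes the levels were 0.36 and 0.89 in the same genotypes, a difference of -0.53. In epithelial cells they were -0.06 and -0.40, a difference of 0.34. No Ccr9 difference reached 2-fold. Immature thymocyte markers had median differences of -0.89, 0.67 and -0.59 in CD4+CD25hi, epithelial and CD45+ cells, of the same sign as Ccr9 in each. The Ccr9 difference in CD45+ cells was within the SD between probes of 1 gene (0.21). T lineage markers had medians of -0.09, 0.74 and -0.01. Of 8 immature markers, 2 were 2-fold lower in CD4+CD25hi and 2 higher in epithelial cells, against 1.28% and 5.1% of all genes. With normexp the immature medians were -0.20, 0.41 and -0.53, and 0 of these markers were 2-fold apart. Their summed level was 9.54 in double-knockout and 11.2 in TNF-knockout CD4+CD25hi thymocytes, with Ptcra (the pre-T cell receptor alpha chain) at -1.35 and Dntt (terminal deoxynucleotidyl transferase) at -1.0 as log2 differences. It was 70 against 36.4 in epithelial cells and 83.6 against 132 in CD45+ cells, double knockout before TNF knockout, and the part of these cells in the Ccr9 levels was not tested.

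Cxcr3, Cxcr6 and Ccr2 serve the entry of activated lymphocytes and monocytes into inflamed tissue. Cxcr3 binds Cxcl9 and Cxcl10, and in CD4+CD25hi thymocytes its level was -0.37 in the double knockout and -1.65 in the TNF knockout, a difference of 1.28 or 2.43-fold. In CD45+ cells it was 0.64 and 1.02 in these genotypes, a difference of -0.39, opposite in sign. In epithelial cells Cxcr3 was too dim on the double-knockout array to give a fold. With normexp the difference in CD4+CD25hi thymocytes was 0.90, below 2-fold. On the marker list of natural killer and innate lymphoid cells, 2 of 4 genes measured were at least 2-fold higher in the same double-knockout thymocyte sample. Of all genes, 1.68% were 2-fold higher there. Il7r, the interleukin-7 receptor that many T cells also carry, differed by 2.13 and Eomes, a transcription factor of natural killer and memory-type T cells, by 2.01, whereas the natural killer receptors Ncr1, Klrb1c and Klrk1 were not well above background on either array. Tbx21, which encodes T-bet, had levels of -1.61 in the double knockout and -1.56 in the TNF knockout. The summed level of the list was 13.5 in the double knockout and 3.41 in the TNF knockout, or 2.0 and 0.783 without its brightest gene, Il7r, and its part in the Cxcr3 and Cxcr4 differences was not tested.

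Cxcr6, the receptor for Cxcl16, differed little outside the epithelial sort. Its levels were -0.99 and -1.35 in double-knockout and TNF-knockout CD4+CD25hi thymocytes, a difference of 0.36, and 0.83 and 0.85 in CD45+ cells, a difference of -0.01. In epithelial cells they were -1.59 and -2.73, a difference of 1.14 or 2.2-fold, on signals of only 35.7 and 55.7. This difference and that of Cxcr4 lay just past the 2-fold line. A second, dimmer Cxcr6 probe differed by 0.30 in CD4+CD25hi and 0.04 in CD45+ cells and was not well above background on either epithelial array. Ccr2, the receptor for Ccl2 on monocytes, was well above background only in CD45+ cells. Its levels there were -1.70 in the double knockout and -1.84 in the TNF knockout, a difference of 0.15.

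Ccr6 binds Ccl20 and is found on B cells, dendritic cells and T cells of the Th17 and regulatory kinds. In CD45+ cells its level was -0.10 in the double knockout and 1.80 in the TNF knockout, a difference of -1.89 or 3.72-fold, the largest among the receptors. In epithelial cells it was -0.97 and 0.44 in these genotypes, a difference of -1.41 or 2.66-fold. In CD4+CD25hi thymocytes, where the gene was brightest, the levels were 4.03 and 3.83, a difference of 0.20. The difference in CD45+ cells ranged little with the background correction, at -1.79 with normexp, while that in epithelial cells was -0.90 with normexp. Dendritic cell genes were also lower in the double-knockout CD45+ sample. Of 9 dendritic cell markers, 5 were at least 2-fold lower there, against 2.08% of all genes. Among them were Flt3, a growth factor receptor of dendritic cell precursors, at -1.83 and Irf8, a dendritic cell transcription factor, at -1.78. Irf8 was well above background in every sort. The other 4 markers were within 2-fold. Of these, Sirpa had levels of 1.21 in the double knockout and 0.71 in the TNF knockout, and Zbtb46 -3.99 and -3.91. Summed over the lists, dendritic cell markers came to 131 and 152, and B cell markers to 6.71 and 9.15, in double-knockout and TNF-knockout CD45+ cells. Siglech made up 117 and 119 of the dendritic sums and had 171 and 155 in CD4+CD25hi thymocytes of these genotypes, and without it, a choice made after the values were seen, the sums were 13.7 and 33.2. These Siglech values come from the brighter of 2 probes. Over the processing settings its difference in CD45+ cells ran from -1.6 to -0.01. With the mean over probes, 6 of the 9 dendritic cell markers were at least 2-fold lower there. The part of dendritic and B cells in the Ccr6 difference was not tested.

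Because Ccr6 differed most in a comparison about an NF-kB subunit, the promoter windows of the receptors were searched for the NF-kB consensus on both strands. The windows ran from 250 bases before to 50 after an annotated start, taken from RefSeq on build GRCm38.p6, and 8 of the 9 receptors had 1 or more, 9 windows in all. The consensus was in 1 of the 9 windows, a share near the 8.46% of 32851 windows of all genes. That window lay at the downstream start of Ccr6 (chr17:8242276-8242575, plus strand). In that window, 11 bases in capitals mark 2 overlapping matches, whose first bases lie at -81 and -80 from the start.
Ccr6 downstream start: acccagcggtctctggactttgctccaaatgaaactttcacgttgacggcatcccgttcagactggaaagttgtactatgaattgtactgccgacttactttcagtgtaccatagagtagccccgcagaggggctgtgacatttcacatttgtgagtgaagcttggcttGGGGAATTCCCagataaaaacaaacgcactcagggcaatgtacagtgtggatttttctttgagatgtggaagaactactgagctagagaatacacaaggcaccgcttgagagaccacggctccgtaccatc
The window of the upstream start of Ccr6 (chr17:8235793-8236092, plus strand) held no match and is shown for comparison.
Ccr6 upstream start: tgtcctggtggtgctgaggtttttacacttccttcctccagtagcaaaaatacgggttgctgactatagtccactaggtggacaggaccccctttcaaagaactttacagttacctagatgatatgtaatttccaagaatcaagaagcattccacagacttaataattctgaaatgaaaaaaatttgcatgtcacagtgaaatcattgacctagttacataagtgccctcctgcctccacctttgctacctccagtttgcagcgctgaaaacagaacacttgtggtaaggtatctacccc
A match is a string of letters, not a measured binding site, and the array does not tell the starts apart.

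Cxcr5 binds Cxcl13 and takes B cells and follicular T cells into lymphoid follicles. Its levels were 0.38 and -0.03 in double-knockout and TNF-knockout CD4+CD25hi thymocytes, a difference of 0.41. In CD45+ cells they were -1.69 and -0.92, a difference of -0.77. In epithelial cells they were -2.37 and -0.96, a difference of -1.41 or 2.66-fold. The epithelial value rests on a signal of 20.8 on the double-knockout array, against 190 on the TNF-knockout array, and was -0.22 with normexp. Cxcr5 was thus higher in the double knockout in 1 population and lower in the other 2.

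Ccr4 and Ccr8 serve T cells in the thymic medulla and in skin. Ccr4, which binds Ccl17 and Ccl22, had levels of -2.12 and -2.05 in double-knockout and TNF-knockout CD4+CD25hi thymocytes, a difference of -0.07. In CD45+ cells they were -0.35 and -0.56, a difference of 0.21. In epithelial cells they were -2.03 and -0.59, a difference of -1.44 or 2.71-fold, on signals of 26.3 and 245, and the difference was -0.47 with normexp. As for Cxcr5, the epithelial difference of Ccr4 rested on the dimmest array. Ccr8, which binds Ccl1 and in the mouse also Ccl8 and marks effector regulatory T cells, had levels of 0.81 and 1.21 in double-knockout and TNF-knockout CD4+CD25hi thymocytes, a difference of -0.39. Its levels were -1.09 and -1.01 in CD45+ cells, a difference of -0.08, and it was not well above background in epithelial cells. A second Ccr8 probe differed by -0.19 in CD4+CD25hi and by -0.62 in CD45+ cells. In the same CD4+CD25hi samples Klrg1 and Il1rl1, which mark effector regulatory T cells, each differed by -1.40. Of the 7 such markers measured, 2 were at least 2-fold lower and none higher, against 1.28% and 1.68% of all genes. With normexp 0 of the 7 were 2-fold lower, and both genes stood at -0.45.

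**Figure D2:**
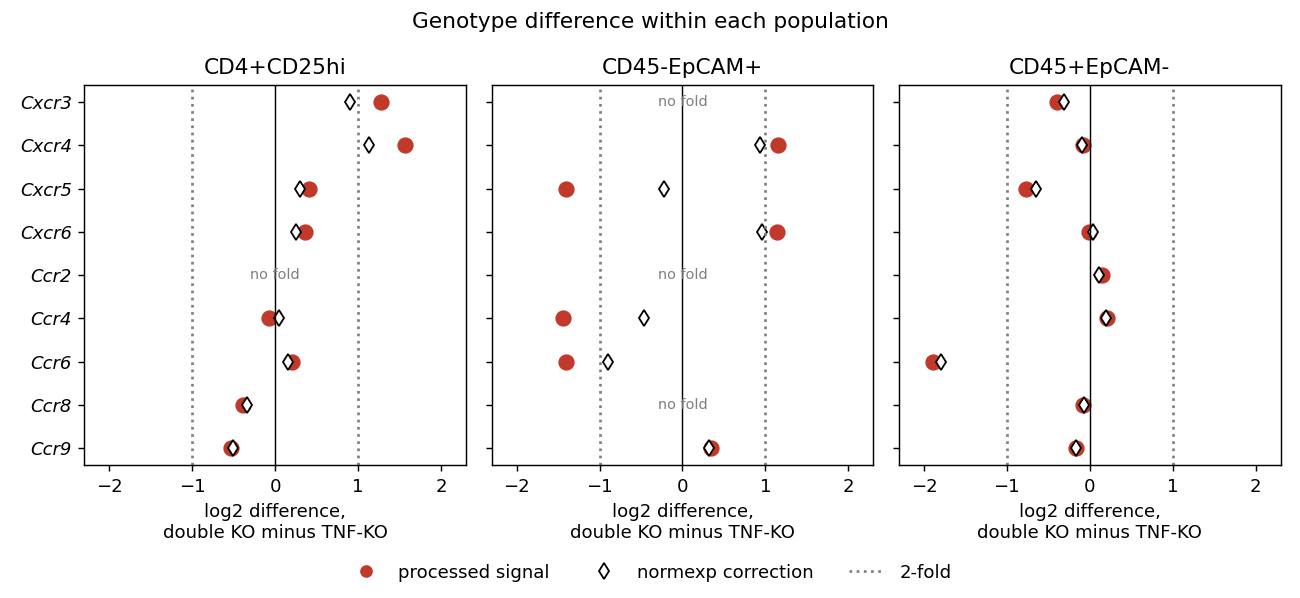
Log2 difference of each receptor, double knockout minus TNF knockout, in each population (horizontal axis, dotted lines at 2-fold), 1 array per genotype and so without error bars, with diamonds for normexp. Cxcr4 and Cxcr3 lie past 2-fold on the higher side in CD4+CD25hi thymocytes, at 1.57 and 1.28, and Ccr6 on the lower side in CD45+ cells, at -1.89.

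To ask for a genotype effect shared by all populations, limma was run over the 6 arrays with population as a block. Its p-values measure the unevenness of the genotype difference from population to population, not the spread between replicate pools. None of 13743 genes passed an adjusted p of 0.05 in limma, which is 0% called, and 873 had an unadjusted p under 0.05. No receptor passed. Rela itself did not pass either, at -1.54 (SE 0.31, limma adjusted p = 0.679), although it was lower in all 3 populations. A fit that misses the deleted gene cannot show that a receptor has no common difference. The receptors with the largest common differences were Ccr6 at -1.04 (SE 0.47, limma adjusted p = 0.679), lower in the double knockout in 2 of 3 populations, and Cxcr4 at 0.88 (SE 0.37, limma adjusted p = 0.679), higher in 2 of 3. The values for the other 6 receptors fitted lay between -0.59 for Cxcr5 (SE 0.40, limma adjusted p = 0.705) and 0.49 for Cxcr6 (SE 0.27, limma adjusted p = 0.679).

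Levels were then compared between populations. Means are given with the SD over the double-knockout and the TNF-knockout array of a population (n = 2), which are not replicates, and a call needed a limma adjusted p below 0.05 and a 2-fold difference. These p-values too rest on the unevenness of the genotype difference between populations, not on replicate pools. The fit used levels as measured, dim ones included. A p-value beside an "at least" fold therefore belongs to the fitted difference, not to the bound. Ccr6 averaged 3.93 ± 0.14 in CD4+CD25hi, -0.26 ± 1.0 in epithelial and 0.85 ± 1.34 in CD45+ cells (SD, n = 2). Ccr8 averaged 1.01 ± 0.28 in CD4+CD25hi and -1.05 ± 0.06 in CD45+ cells and was not well above background in epithelial cells. Ccr9 averaged 0.63 ± 0.38 in CD4+CD25hi, -0.23 ± 0.24 in epithelial and 4.42 ± 0.12 in CD45+ cells. Ccr6 and Ccr8 were thus highest in the thymocyte sort enriched in regulatory T cells, and Ccr9 in the CD45+ sort.

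CD4+CD25hi thymocytes exceeded epithelial cells for 3 of the 8 receptors tested and none was lower, where 18.3% of all genes were higher and 20.7% lower. Ccr6 was 4.19 higher (SE 0.58, limma adjusted p = 0.00926), Ccr8 at least 28-fold higher (limma adjusted p = 0.00127) and Cxcr5 1.84 higher (SE 0.49, limma adjusted p = 0.0424). The Cxcr5 call was lost without the double-knockout CD4+CD25hi array (limma adjusted p = 0.107), without the double-knockout epithelial array (limma adjusted p = 0.127), and without either CD45+ array (limma adjusted p = 0.0822). Without the double-knockout epithelial array, Ccr4 was called lower, at -1.53 (limma adjusted p = 0.0142), while Ccr9, at 1.20 (limma adjusted p = 0.0243), and Cxcr6, at 1.48 (limma adjusted p = 0.0179), were called higher. With all arrays Cxcr3, Ccr9 and Cxcr6 did not pass, with differences of 1.50 (SE 0.45), 0.86 (SE 0.26) and 0.99 (SE 0.33). For Cxcr4 the difference was 0.00 (SE 0.46, limma adjusted p = 0.998).

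Against CD45+ cells, CD4+CD25hi thymocytes were higher for 2 and lower for 2 of 8 receptors, where 4.8% of genes were higher and 7.81% lower. Ccr6 was 3.08 higher (SE 0.58, limma adjusted p = 0.0481) and Ccr8 2.06 higher (SE 0.19, limma adjusted p = 0.0169). Ccr9 was lower, at -3.79 (SE 0.26, limma adjusted p = 0.0114), and so was Cxcr6, at -2.01 (SE 0.33, limma adjusted p = 0.0382). Leaving out any 1 of its 4 arrays left 0 of the 1734 calls over all genes, with 2492 to 2812 genes at an unadjusted p under 0.05, and the Ccr6 call was lost without any 1 of the 6 arrays.

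epithelial cells were lower than CD45+ cells for 4 of 8 receptors and higher for none, where 19.4% of genes were higher and 19.2% lower. Ccr9 stood at -4.65 (SE 0.26, limma adjusted p = 0.0026), Cxcr3, well above background on only 1 of the 2 epithelial arrays, at -3.33 (SE 0.45, limma adjusted p = 0.00902) and Cxcr6 at -3.00 (SE 0.33, limma adjusted p = 0.00609), and Ccr8 was at least 6.73-fold lower (limma adjusted p = 0.00234). The other 4 did not pass and ranged from -1.31 for Cxcr4 (SE 0.46) to -0.36 for Cxcr5 (SE 0.49). Ccr2, outside the fit because only 2 arrays were well above background, was at least 6.69-fold lower in CD4+CD25hi and at least 3.65-fold lower in epithelial than in CD45+ cells, without a test. By mean level, Cxcr3, Cxcr4, Cxcr6, Ccr2, Ccr4 and Ccr9 were highest in CD45+ cells and Cxcr5, Ccr6 and Ccr8 in CD4+CD25hi thymocytes. For Cxcr4 and Ccr4 no pair of populations passed the test. The lower-placed neighbours did not pass for Ccr6, Ccr9, Cxcr3, Cxcr5 and Cxcr6, nor did the upper-placed for Cxcr5 and Cxcr3.

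**Figure D3:**
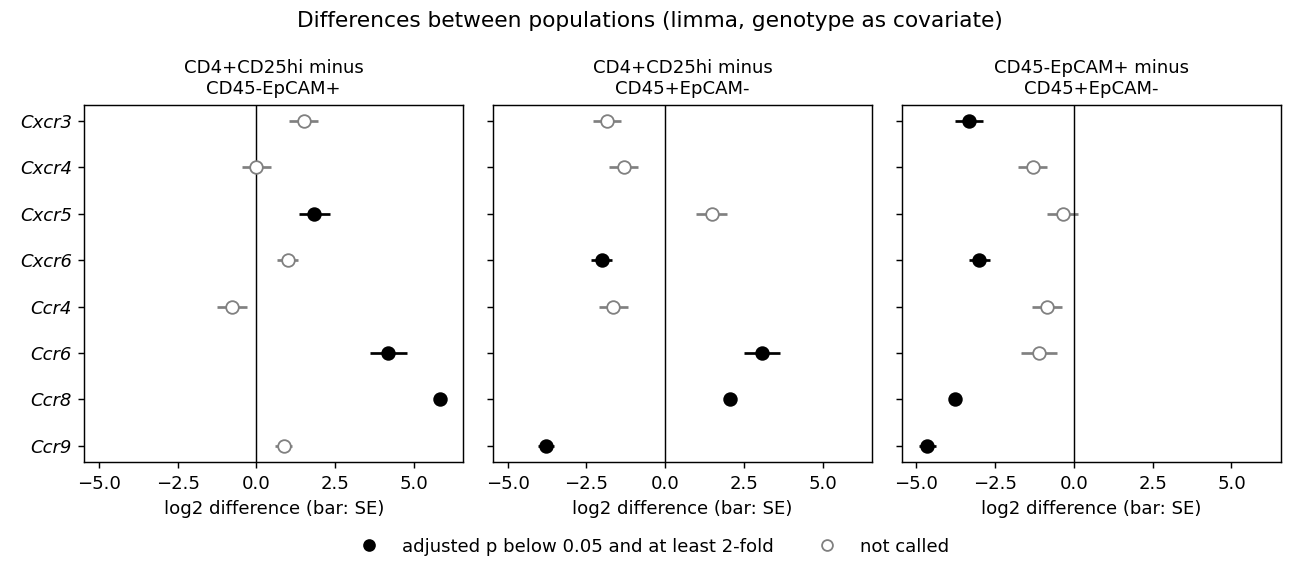
Log2 difference between populations for the 8 receptors in the limma fit (horizontal axis), with bars of 1 SE, filled where adjusted p was below 0.05 and the difference at least 2-fold, and with Ccr8 at its fitted value also where only a bound is given. Ccr6 lies at 4.19 and 3.08 in the contrasts of CD4+CD25hi thymocytes with epithelial and CD45+ cells, and Ccr9 at -4.65 between epithelial and CD45+ cells.

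Ccr7, which leads thymocytes into the medulla and was set aside from these receptors, had differences of 0.42, -1.66 and 0.60 between the genotypes in CD4+CD25hi, epithelial and CD45+ cells. Its mean level in CD4+CD25hi thymocytes was 4.94 above that in epithelial cells (SE 0.66, limma adjusted p = 0.00869).

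Most ligands of the 9 receptors were higher in the epithelial sort than in the other sorts. Of 15 listed, 14 were named on the array and 11 could be tested between populations. All 11 were lower in CD4+CD25hi thymocytes than in epithelial cells, against 20.7% of all genes. In epithelial cells 8 of 11 were higher than in CD45+ cells, against 19.4% of all genes. Ccl25, the ligand of Ccr9, was 8.72 higher in epithelial than in CD45+ cells (SE 0.26, limma adjusted p = 0.00183), and Cxcl12, the ligand of Cxcr4, was 11.49 higher (SE 0.53, limma adjusted p = 0.00218), on a signal well above background on only 1 of the 2 CD45+ arrays. Between the genotypes in epithelial cells, Ccl25 had levels of 8.84 in the double knockout and 8.14 in the TNF knockout and Cxcl12 6.04 and 5.44, differences of 0.70 and 0.60.

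Of 13 ligands measured in epithelial cells, 4 were at least 2-fold lower in the double knockout and 1 was higher. Of all genes, 9.3% were lower and 5.1% higher there. Ccl1, a Ccr8 ligand, had a level of -1.16 in the double knockout and 1.30 in the TNF knockout, a difference of -2.45. Ccl17, a Ccr4 ligand, had levels of 0.55 and 2.01 in these genotypes, a difference of -1.46. The Cxcr3 ligands Cxcl9 and Cxcl10 differed by -1.40 and -1.23, and Ccl7 by 1.07. Ccl1, Ccl17, Cxcl9 and Cxcl10 kept a 2-fold lower value under every scaling and with normexp, while Ccl7 was 0.75 with normexp. The median over the 13 ligands was -0.40, against 0.03 for all genes.

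In CD45+ cells, 4 of 12 ligands were at least 2-fold higher in the double knockout and 3 were 2-fold lower. Of all genes, 1.82% were higher and 2.08% lower there. The higher ligands were the monocyte chemokines. Ccl7 had a level of -1.68 in the double knockout and -4.86 in the TNF knockout, a difference of 3.18. Ccl8 differed by 2.77, Ccl2 by 2.63 and Ccl12 by 1.39. With normexp the differences were smaller, at 1.60 for Ccl7, 1.59 for Ccl8, 1.64 for Ccl2 and 0.83 for Ccl12. The receptor of Ccl2, Ccl7 and Ccl12, Ccr2, differed by only 0.15 in the same sort. The summed level of macrophage and monocyte markers there was 19.4 in the double knockout and 11.8 in the TNF knockout, and its part in the chemokine differences was not tested. The lower ones were Cxcl10 at -1.48, Ccl17 at -1.16 and Cxcl9 at -1.02. With normexp or under quantile normalization 2 of 12 were lower. In CD4+CD25hi thymocytes 5 ligands were measured, where 1.28% of all genes were 2-fold lower. Ccl1 was at least 3.57-fold lower in the double-knockout thymocytes, where it was not well above background. With normexp Ccl1 stood at -0.58 there, short of 2-fold.

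**Figure D4:**
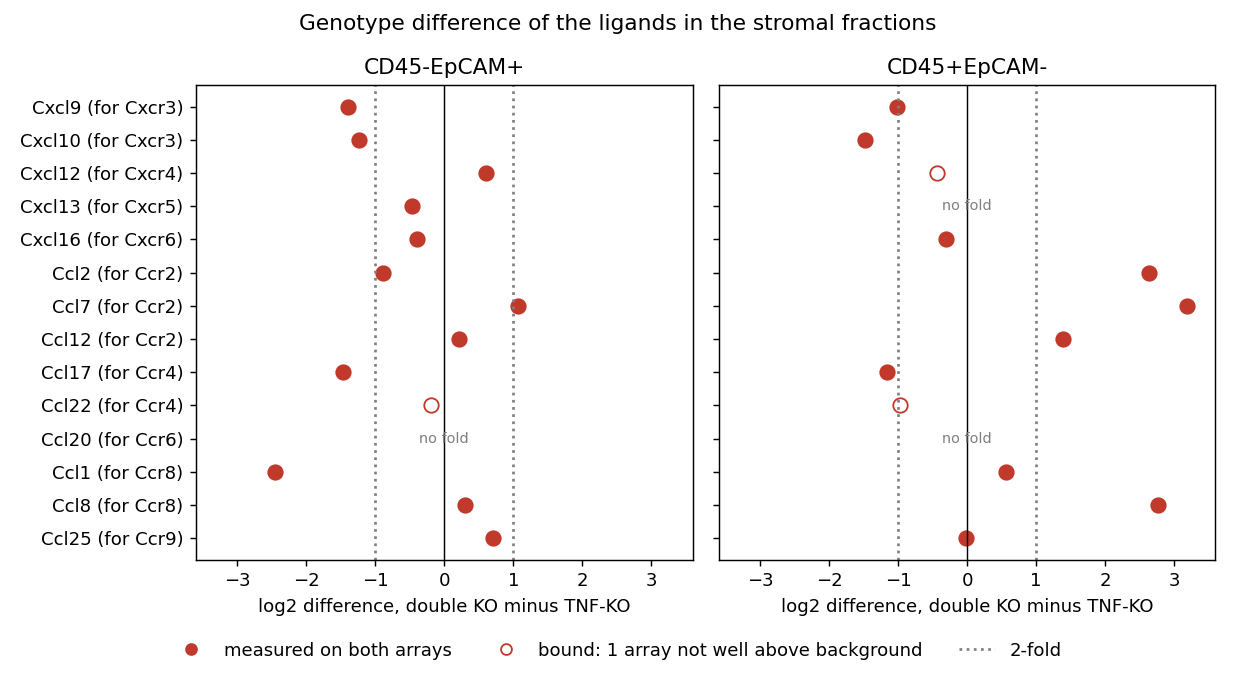
Log2 difference of the receptors' ligands, double knockout minus TNF knockout, in the epithelial (CD45-EpCAM+) and the CD45+ (CD45+EpCAM-) sort (horizontal axis, dotted lines at 2-fold), 1 array per genotype and so without error bars, with bounds drawn as open symbols. Ccl7, Ccl8 and Ccl2 lie at 3.18, 2.77 and 2.63 in CD45+ cells, and Ccl1 at -2.45 in epithelial cells.

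A further 14 chemokine receptors, Ccr7 included, were on the array. In epithelial cells 3 of 7 were lower and none was higher, against 9.3% and 5.1% of all genes. Ccr7 was lower at -1.66. The scavenging receptor Ackr2 was at least 3.81-fold and the skin-homing receptor Ccr10 at least 3.28-fold lower, both dim on the double-knockout array. In CD45+ cells none of 10 was past 2-fold. With normexp only Ccr7, at -1.69, was past 2-fold in epithelial cells, with Ackr2 at -0.56 and Ccr10 at -0.33.

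G proteins, receptor kinases, arrestins, Rgs proteins and cytoskeletal regulators act downstream of these receptors. Of 29 such genes listed, none of 28 measured was 2-fold apart between genotypes in CD4+CD25hi thymocytes and none of 29 in CD45+ cells. Of all genes, 1.68% were higher and 1.28% lower in the first sort, and 1.82% and 2.08% in the second. In double-knockout epithelial cells 2 of 26 were lower, a share near the 9.3% of all genes. They were the G protein subunit gene Gng2 at -1.24 and the signalling inhibitor Rgs16 at least 4.08-fold. With normexp 0 of 26 were 2-fold lower, with Gng2 at -0.85 and Rgs16 at -0.49. Between CD4+CD25hi thymocytes and epithelial cells, 20 of 29 were higher and 2 lower, against 18.3% and 20.7% of all genes. Rgs1, which shortens receptor signals, was 5.32 higher (SE 0.21, limma adjusted p = 0.00137) and the receptor kinase Grk5 stood at -3.80 (SE 0.27, limma adjusted p = 0.00291). Between CD4+CD25hi thymocytes and CD45+ cells, 3 were higher and 1 lower, against 4.8% and 7.81% of all genes.

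The genes whose levels ran closest to each receptor over the 6 arrays were sought among 13742 others, by the root mean square distance of their centred log2 levels. The 6 arrays share populations, slides and depth, so the correlations are descriptions. Cxcr6 ran closest to Dck, a nucleoside kinase, at a distance of 0.13 (r = 0.995), and Ccr4 to Abcb1b, a drug efflux transporter, at 0.14 (r = 0.996). Cxcr5 ran closest to Ctss, a lysosomal protease of antigen-presenting cells, at 0.18 (r = 0.983). Among the genes closest to Ccr9 were the cell cycle kinase Cdk1 at 0.32 (r = 0.993) and the CD8 beta chain gene Cd8b1 at 0.40 (r = 0.997). Ccr8 ran closest to Tspan32 at 0.23 (r = 0.998), followed by Nr4a1, an immediate-early gene of T cell receptor signalling, at 0.26 and Bach2 at 0.31. Cxcr4 had Haao at 0.37 (r = 0.919) and Cxcr3 had Dck at 0.41 (r = 0.958), with Cxcr6 next at 0.42. Ccr6 had no gene closer than 1110032F04Rik at 0.56 (r = 0.958), followed by Lta, which encodes lymphotoxin alpha, and Tagap at 0.58.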

How the data were processed

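RNA of 6 sorted cell pools was hybridised, and the data were deposited as scanner files of 1-colour Agilent arrays, with an intensity per spot made by the authors in Feature Extraction 10.5.1.1 for array design 026655 (build mm9), per the file headers. The submitters' processing notes give version 9.5 of Agilent Feature Extraction. The deposited value table is on a log2 scale and matched the values computed here to within an offset of at most 0.0054 per array. Its column medians ran from -3.72 to -2.72.

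Here, control spots and outlier spots were left out, spots of a probe were averaged, and log2 of the processed signal was set relative to the array's 75th percentile. Of 39429 probes, 39419 were used. Accessions gave 27472 probes a single symbol (69.7%), 35 several and 11912 none, through RefSeq names of GRCm38.p6. A gene was read by the probe with the highest mean level. No spot was saturated. Where 1 array of a pair was not well above background, that side took its own value or, if higher, the faintest well-above-background signal of its array, which gives an "at least" fold. No fold is given where both arrays were dim or that fold was under 1. Bounds between populations were made the same way.

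limma 3.58.1 in R 4.3.3 was fitted on 6 arrays with population and genotype as terms, over 13743 genes that 3 or more arrays measured well above background, with 2 residual degrees of freedom, a prior of 1.74 and Benjamini-Hochberg adjustment. The code was tested on simulated data. Alternatives were normexp (offset 50), quantile normalization, median centring, the mean over probes, other filters, the deposited table and leaving out each array. The normexp setting used median rather than mean spot signals, the only ones in the files. Named genes are the 9 receptors, up to 4 genes of each other list by size of difference, ligands and markers that stand beside a receptor, and the 3 genes closest to a receptor over the arrays. The receptors and lists were chosen with earlier results of these data known. A few genes that these rules would name are not reported here.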

Additional observations from a re-analysis of the deposited data

Results flagged for a closer look

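Among the receptors, 3 had genotype differences of opposite sign in different populations, each larger than the SD between probes of 1 gene (0.22 in CD4+CD25hi, 0.32 in epithelial and 0.21 in CD45+ cells). That size was chosen after the values were seen, and with 1 array per group none of these contrasts was tested. The SD between probes does not measure the spread between pools. Cxcr3 differed by 1.28 in CD4+CD25hi thymocytes and by -0.39 in CD45+ cells, double knockout minus TNF knockout. Cxcr5 differed by 0.41 in CD4+CD25hi thymocytes, by -1.41 in epithelial cells and by -0.77 in CD45+ cells. Its epithelial difference was -0.22 with normexp, within that SD. Ccr9 differed by 0.34 in epithelial cells and by -0.53 in CD4+CD25hi thymocytes.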

How the results depend on the processing

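There was 1 array per group and there were no replicate labels. The same limma fit, with population and genotype as terms, gave the common and the population differences. Arrays were thus matched by population for the common difference and by genotype for the population differences. Of 161 recomputed genotype differences of single receptors, 155 stayed within the SD between probes of the main value. Many had to, as the other filters and the deposited table barely moved these values and only Cxcr6 and Ccr8 had several probes. The 6 beyond it, Ccr8 in CD45+ cells with the mean over probes (-0.35) and 5 with normexp, kept their sign. The 5 were all past 2-fold in the main setting. Of the 2 receptors 2-fold higher in double-knockout CD4+CD25hi thymocytes, normexp left 1, and of the 2 higher and 3 lower in epithelial cells, 0. The offset of 50 in the normexp setting makes log2 differences of dim signals smaller by construction. Its part in these changes was not tested. Over all genes, normexp left 33 higher and 18 lower in CD4+CD25hi, 473 and 571 in epithelial and 66 and 108 in CD45+ cells. Without a filter the counts were 965 and 590, 4497 and 2004, and 850 and 632, where genes dim on both arrays were counted too. The common genotype fit called 0 genes in every alternative, with 520 to 1219 at an unadjusted p under 0.05.

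Of 408 recomputed population and common differences of receptors, 360 kept their side of the threshold, 31 lost a call and 17 gained one. Between CD4+CD25hi and epithelial cells, 5 receptors were higher under quantile normalization in place of 3, leaving out 1 array gave 2 to 4 higher and 0 to 1 lower, and the Cxcr5 call was lost with median centring (limma adjusted p = 0.0646) and with no filter (0.0599). Between CD4+CD25hi and CD45+ cells, 1 was higher under quantile normalization, with the mean over probes and where all arrays had to be well above background, and 0 without a filter. There 1 was lower under quantile normalization and without a filter, and leaving out 1 array gave 0 to 1 higher and 0 to 3 lower. Between epithelial and CD45+ cells, 2 were lower in place of 4 where all arrays had to be well above background, which tests fewer genes, and leaving out 1 array gave 4 to 5. Calls gained by leaving out 1 array were also those of Cxcr3 between CD4+CD25hi and epithelial cells (without the TNF-knockout thymocyte array, limma adjusted p = 0.0482, or either CD45+ array, 0.0488), of Ccr4 between CD4+CD25hi and CD45+ cells (without either epithelial array, 0.0195), and, between the stromal sorts, of Cxcr4 (without the double-knockout CD45+ array, 0.0442), Ccr4 (without the TNF-knockout epithelial array, 0.0152) and Ccr6 (without either thymocyte array, 0.0419). The Ccr8 call there was lost with normexp (-0.98, limma adjusted p = 0.0653).

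Scaling moved the split of all calls. Median centring gave 1841 higher and 3236 lower between CD4+CD25hi and epithelial cells and quantile normalization 3057 and 2467, in place of 2511 and 2839, as the median of all genes went to -0.07 and 0.21 in place of 0.15. Between epithelial and CD45+ cells they gave 3103 and 1956, and 2337 and 3190, and normexp 3220 and 2163, in place of 2665 and 2636, with medians of 0.08, -0.24 and 0.09 in place of -0.14. Between CD4+CD25hi and CD45+ cells normexp gave 639 and 687 in place of 660 and 1074. Without a filter that contrast called 440 genes in place of 1734 and the one between the stromal sorts 8826 in place of 5301. Calls between CD4+CD25hi and epithelial cells numbered 3258 and 2845, in place of 5350, with the double-knockout or the TNF-knockout thymocyte array left out. Calls between the stromal sorts numbered 2205 and 2005, in place of 5301, with the double-knockout or the TNF-knockout CD45+ array left out.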
